A study of Mus musculus with 4 samples.

Results

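The spots richest in fibroblast collagen and proteoglycan transcripts were examined in 2 sections of mouse facial skin, 1 unwounded and 1 taken at postoperative day 4 after wounding. A spot was eligible when it held at least 1000 unique molecular identifiers (UMIs, each standing for 1 captured transcript), and its score was the share of its UMIs in Col1a1, Col1a2, Col3a1, Dcn, Lum and Pdgfra. The 80 spots of highest score were taken in each section, which makes 160 of the 1812 spots of both facial sections and of the 3530 spots of the whole series, whose other sections are of oral mucosa. In the unwounded section they were 80 of 653 eligible spots among 671, and in the day 4 section 80 of 1096 among 1141. Per the labels the mice were wildtype in both groups, the tissue was flash-frozen, and the measurement was 10x Visium, in which barcoded spots under a frozen section capture its polyadenylated RNA. Sections of postoperative days 2 and 7 and the single-cell and bulk data that the design mentions were not analysed here, and the labels used here give neither the number of animals nor their sex or age. Each group was 1 section, so there was no replicate and no test, and every difference below is one between single sections. The 95% intervals cover counting error only and say nothing about the spread between animals.

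Dermal fibroblasts make the collagen fibres, proteoglycans and elastic fibres of skin, and Pdgfra, the receptor for platelet-derived growth factor, marks them in the mouse. After wounding, fibroblasts of the surrounding dermis and the fascia beneath it move into the wound, where they lay down a provisional matrix rich in fibronectin and later replace it with collagen. They also signal to incoming leukocytes through chemokines and acute-phase proteins, and macrophages and fibroblasts exchange growth factors during repair.

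The values that chose the spots describe them and support nothing. Among the unwounded spots the score ran from 1.37% to 5.52% with a median of 2.17%, and among the day 4 spots from 4.20% to 6.62% with a median of 5.25%. The spots just outside the choice scored 1.37% in the unwounded and 4.14% in the day 4 section, so the limit cut through a continuous range of scores. The other eligible spots had a median score of 0.337% in the unwounded and 1.01% in the day 4 section. The scores of the 2 sections overlapped at their ends, with 29 day 4 spots above the highest unwounded one and 2 unwounded spots at or above the lowest day 4 one.

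The chosen unwounded spots held 1424492 UMIs in all and 3648 to 46537 per spot, and the day 4 spots 471283 in all and 1461 to 14164 per spot. Levels are therefore given as UMIs per 1000000 of a set (CPM), on which 3 UMIs correspond to 2.11 CPM in the unwounded and 6.37 CPM in the day 4 spots. The median depth was 15656.5 UMIs per unwounded and 6010.5 per day 4 spot. The number of spots in which a gene was seen, given below for some genes, therefore also depends on depth. Mitochondrial transcripts took 3.15% of UMIs in the unwounded and 2.16% in the day 4 spots. The sections differed in sex-linked transcripts, with 0 UMIs of Xist and 96 of Eif2s3y in the unwounded spots against 59 and 0 in the day 4 spots, so sex and wounding cannot be told apart. A spot can hold several cells of different types, and in a sum over spots fewer cells of a type and less RNA per cell cannot be told apart.

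On the array the chosen spots formed bands and not scattered points. In the unwounded section they lay in 13 groups of touching spots, of which the largest held 38 and the second 28, and in the day 4 section in 7 groups, of which the largest held 52 and the second 19. Among the spots touching a chosen spot, 62.1% were themselves chosen in the unwounded and 68.5% in the day 4 section, against 12.3% and 7.30% of all eligible spots. Each section lay on its array as 2 separate pieces of tissue, and the labels do not say how the pieces relate. The unwounded spots came from both pieces, 46 from the piece of 510 eligible spots and 33 from the piece of 142, with 1 spot lying apart from both. The day 4 spots all came from the piece of 478 eligible spots and none from the piece of 618, in which the highest score was 3.85%.

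**Figure D1:**
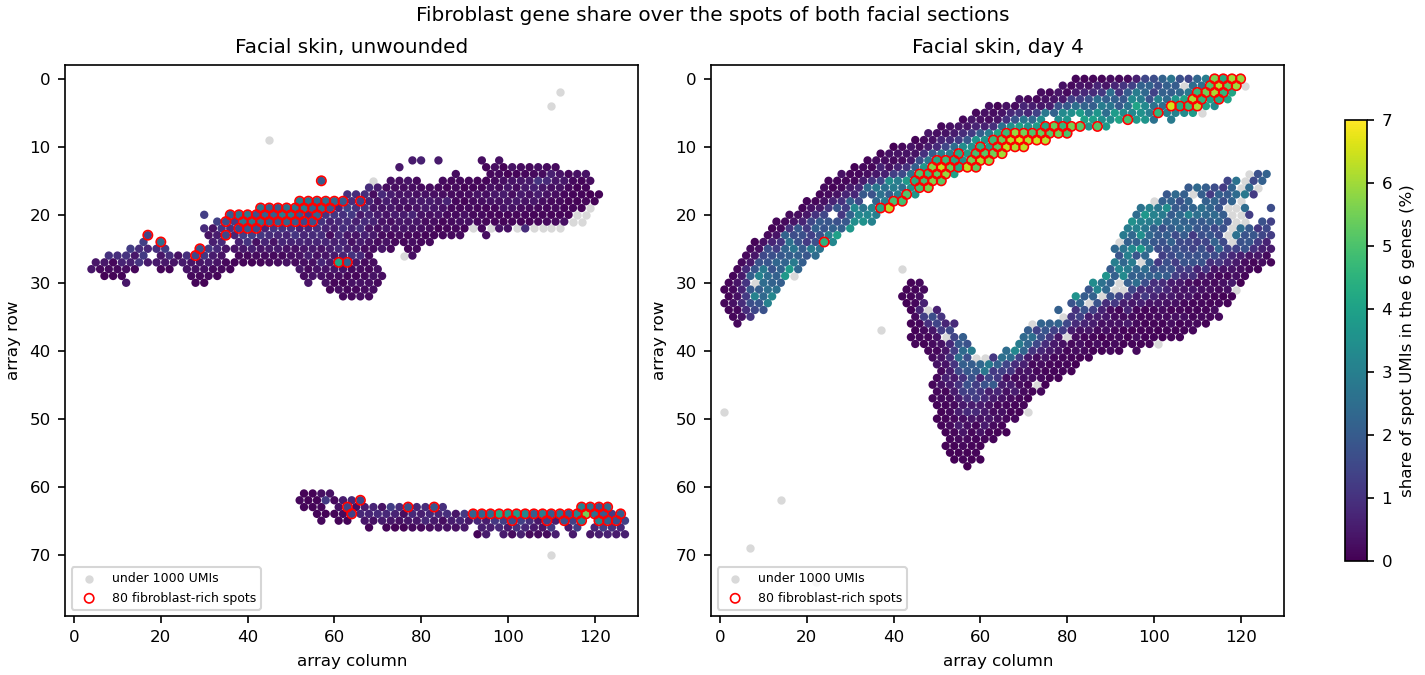
Eligible spots of both facial sections at their array row and column (array units), coloured by the share of UMIs in the 6 genes (percent), with the 80 chosen spots of each section ringed in red and spots under 1000 UMIs in grey. The unwounded section has ringed spots in both pieces of tissue, and in the day 4 section all 80 ringed spots lie in the upper piece.

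Every difference between day 4 and unwounded spots therefore rests on 1 of the 2 day 4 pieces. As a second reading, chosen after the data were seen, the 80 highest-scoring spots of the other day 4 piece (scores from 2.24% to 3.85%, 238409 UMIs) were set against the same unwounded spots. They held fewer UMIs than the 471283 of the chosen day 4 spots, so a gene not counted there can still differ. A gene was counted as higher or lower when both sets together held 20 or more of its UMIs and it differed at least 1.5-fold in CPM and with Poisson intervals that did not overlap. Between the chosen day 4 and unwounded spots 842 of 10445 genes were higher (8.06%) and 1125 lower (10.8%), and the median log2 ratio over all of them was -0.10. With the other day 4 piece, 737 of 10133 genes were higher (7.27%) and 608 lower (6%), with a median of -0.01. Of the genes counted in the chosen spots, 271 of the 842 were also higher there and 362 of the 1125 also lower. Among the other eligible spots, day 4 against unwounded, 7.66% of genes were higher and 8.05% lower, also with a median of -0.01. The first 2 comparisons share the unwounded spots, so their values are set side by side below and not counted as 2 findings. Both pieces of the day 4 section carried Xist and neither carried Eif2s3y, at 125 and 143 CPM of Xist in the chosen spots and in those of the other piece.

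Compared with the other eligible spots of their own section, the chosen spots held more of the transcripts of dermis and fewer of those of epidermis. These values describe spots that were picked by their fibroblast share and are no independent support for it. In the unwounded section 2922 of 13252 genes were higher in the chosen spots (22%) and 1383 lower (10.4%), and in the day 4 section 2683 of 12995 were higher (20.6%) and 1712 lower (13.2%). Over all genes the median log2 ratio was 0.11 and 0.05. Scaling by the trimmed mean of M values (TMM), which moved the median of all genes by over 0.1 in both, gave 2339 higher and 1913 lower in the unwounded and 2114 higher and 2273 lower in the day 4 section.

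Genes outside the score that were highest against other spots of unwounded skin were Cfd, an adipocyte-secreted complement protease (log2 ratio 4.40), Hp, haptoglobin (4.13), Fabp4, a fatty-acid binding protein of adipocytes and capillaries (3.85), Gpx3 (3.49), Col14a1 (3.76), Cilp (3.59), Prg4, lubricin (4.06), Dpt, dermatopontin (2.98), and Lox, the collagen crosslinking enzyme lysyl oxidase (3.01). In the day 4 section they were the neutrophil-attracting chemokine Cxcl5 (5.85), Cthrc1 (4.42), the Wnt antagonist Sfrp2 (4.29), Saa3 (4.59), Lox (4.10), S100a9 (4.04), the matrix protease Mmp3 (3.72), Spp1, osteopontin (4.11), Ifi205 (4.03) and Plac8 (4.00). Lox was thus on both lists, and Cfd and Hp, which led in unwounded skin, were at -1.95 and -0.89 in the day 4 section. The lowest genes included Calm4 in both sections (-2.76 and -3.80) and, in unwounded skin, the suprabasal keratin Krt10 (-2.62), the growth factor Ereg (-3.43) and the glucose transporter Slc5a1 (-2.63). In the day 4 section Lce6a (-5.22) and Fcgbp (-4.92) were among the lowest.

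All 9 suprabasal epidermis markers tested were lower in the chosen spots of both sections (medians -2.31 and -3.12), where they still took 0.578% and 0.596% of UMIs, against 3.05% and 5.17% in the other spots. Fibrillar collagens other than those of the score were higher for 7 of 8 genes in unwounded and 8 of 8 in day 4 skin (medians 2.32 and 2.23). Among 14 macrophage and monocyte markers 13 and 14 were higher (medians 2.09 and 2.14), so the chosen spots were also rich in macrophage transcripts. Reticular dermis markers were higher for 8 of 8 and 9 of 10 genes (medians 2.18 and 1.91), and papillary dermis markers for 9 of 12 and 4 of 11 (medians 0.83 and 0.20). Skeletal muscle markers separated the sections: all 13 were higher in the chosen unwounded spots (median 3.41) and 1 in the day 4 spots, with 3 lower (median -0.41). Neutrophil markers ran the other way, with 1 of 9 higher and 5 lower in unwounded skin and all 6 tested higher at day 4 (medians -0.80 and 2.17). Of the 80 spots with the largest macrophage share, 47 were among the chosen spots of unwounded skin and 23 of day 4 skin. Of the 80 spots with the largest adipocyte share, 46 were among the chosen spots of unwounded skin and 1 of day 4 skin, and of the 80 with the largest neutrophil share, 0 and 42.

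The 6 genes of the score did not differ together between the sections. Col1a1, a chain of type I collagen, stood at 6815 CPM in the unwounded and 24321 CPM in the day 4 spots (log2 ratio 1.84, 95% interval 1.80 to 1.87). Per spot it ran from 9.85 to 201 UMIs per 10000 over the unwounded spots (median 67.8) and from 136 to 381 over the day 4 spots (median 245), and 69 of 80 day 4 spots lay above the highest unwounded spot. Col3a1, the type III collagen of young and scarring dermis, went from 6864 to 14257 CPM (1.05), Col1a2 from 5473 to 10151 CPM (0.89) and Pdgfra from 229.6 to 460.4 CPM (1.0). Dcn and Lum, small proteoglycans that coat collagen fibrils, were at 2146 against 2311 CPM (0.11) and at 1758 against 1848 CPM (0.07). Since the score sums these genes, their levels are a description of how the sum was made up. In the other day 4 piece Col1a1 was at 10649.8 CPM (0.64), Col3a1 at 7739 (0.17), Col1a2 at 4924 (-0.15), Pdgfra at 495 (1.11) and Dcn at 2076 (-0.05).

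The make-up of the sum can be read as ratios of UMIs, which do not depend on the total and are compared between sets, not between genes. For each UMI of Col1a1 the unwounded spots held 1.01 (95% interval 0.979 to 1.04) of Col3a1 and the day 4 spots 0.586 (95% interval 0.569 to 0.604). Col1a2, whose product joins that of Col1a1 in the same collagen molecule, stood at 0.803 (95% interval 0.779 to 0.827) and 0.417 (95% interval 0.403 to 0.432) per Col1a1 UMI, and Dcn at 0.315 (95% interval 0.302 to 0.328) and 0.0950 (95% interval 0.0892 to 0.101). Lum per Dcn was 0.819 (95% interval 0.777 to 0.864) and 0.800 (95% interval 0.731 to 0.875), with intervals that overlapped. The other spots showed the same order for Col1a2, with 0.809 (95% interval 0.788 to 0.831) in unwounded and 0.454 (95% interval 0.444 to 0.464) in day 4 skin, and for Dcn, with 0.411 (95% interval 0.397 to 0.424) and 0.166 (95% interval 0.161 to 0.172).

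**Figure D2:**
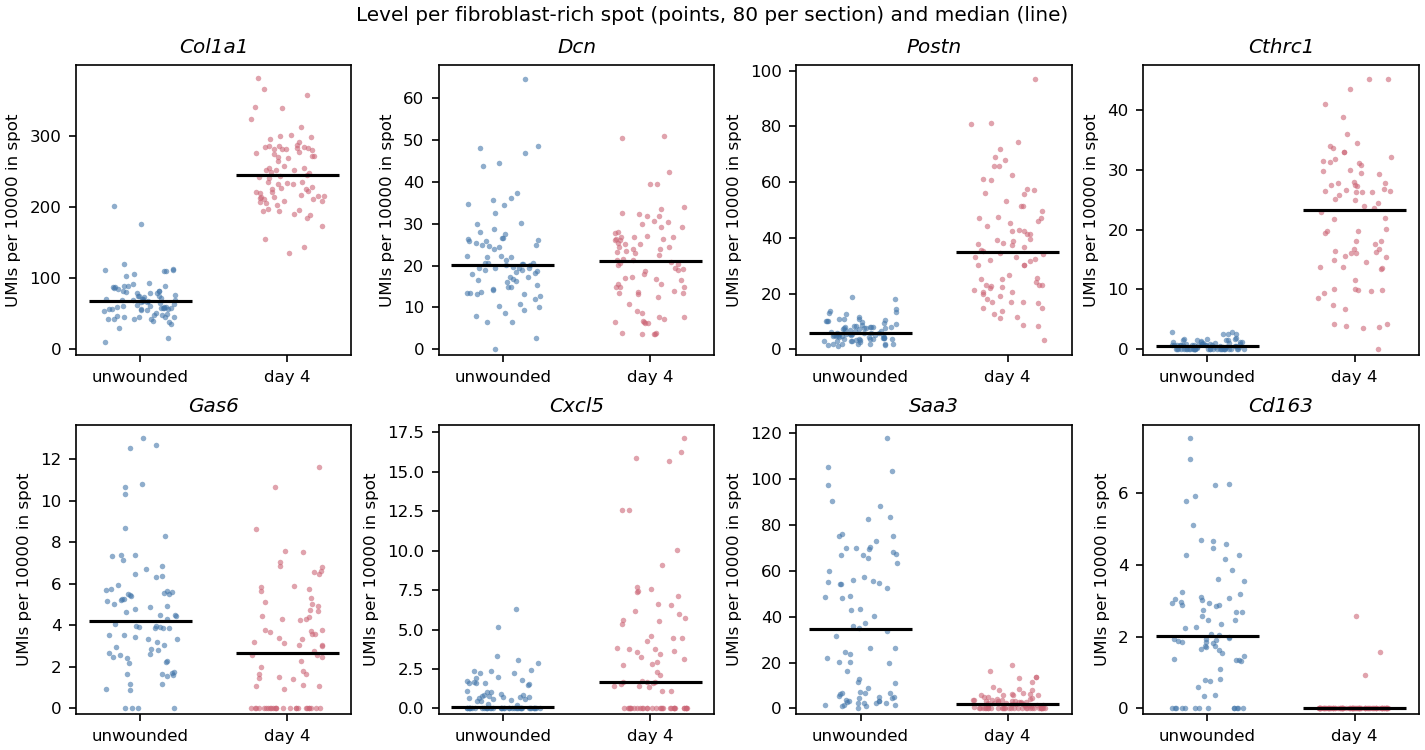
UMIs per 10000 of each chosen spot for 8 genes, 80 unwounded and 80 day 4 spots as points and the median of each set as a line. Col1a1, Postn and Cthrc1 lie higher in the day 4 spots, Dcn overlaps throughout, Gas6 and Cxcl5 overlap over most of their range, and Saa3 and Cd163 lie lower at day 4.

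The genes that stood highest in the day 4 spots against the unwounded ones included secreted matrix proteins and a Wnt antagonist. Cthrc1, a secreted collagen triple helix protein made by activated fibroblasts, was at 59 CPM (84 UMIs) in the unwounded and 2281 CPM (1075 UMIs) in the day 4 spots, a log2 ratio of 5.27 (95% interval 4.95 to 5.61). Per spot Cthrc1 ran from 0 to 2.96 UMIs per 10000 over the unwounded spots (median 0.547) and from 0 to 45.2 over the day 4 spots (median 23.3), and 79 of 80 day 4 spots were above the highest unwounded spot. Sfrp2, a secreted Wnt antagonist of fibroblasts, went from 62.5 to 1025 CPM (4.04) and Postn, periostin, from 600.2 to 4138 CPM (2.79), with 70 and 66 of 80 spots above the highest unwounded one. Mest, an imprinted gene of growing mesenchyme, went from 9.83 to 229 CPM (4.54) and was seen in 13 unwounded and 44 day 4 spots. Itm2a (37.9 to 369 CPM, 3.28), Lrrc17 (49.1 to 354 CPM, 2.85) and Chpf, an enzyme of chondroitin synthesis (68.1 to 320.4 CPM, 2.23), followed.

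Except for Mest, these genes were also counted as higher in the other day 4 piece, each at a smaller ratio than in the chosen spots. Cthrc1 was there at 260.1 CPM (2.14), Sfrp2 at 268 (2.10), Postn at 1435 (1.26), Itm2a at 206 (2.44), Lrrc17 at 147 (1.58) and Chpf at 227 (1.73). Mest was at 16.8 CPM, from 4 UMIs, and fell under the gene minimum. Between the other eligible spots of the 2 sections the same contrast gave 3.51 for Cthrc1, 2.75 for Sfrp2 and -0.06 for Postn.

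Of the remaining genes among the 12 highest by this rule, Spp1 (osteopontin, made by macrophages in wounds; 51.9 to 354 CPM, 2.77), Cxcl5 (77.2 to 441 CPM, 2.51) and Rsad2 (an interferon-induced antiviral enzyme; 28.1 to 210.1 CPM, 2.90) were not higher in the other day 4 piece, where they were at 8.39, 8.39 and 21 CPM. These levels in the other piece rest on few UMIs. The endothelial cadherin Cdh5 (61.8 to 350.1 CPM, 2.50) and the endothelial receptor Cd93 (63.2 to 325 CPM, 2.36) were at 88.1 and 54.5 CPM there and not counted as different. Per spot Cxcl5 ran from 0 to 6.30 UMIs per 10000 over the unwounded spots (median 0.109) and from 0 to 17.1 over the day 4 spots (median 1.69), and 15 day 4 spots were above the highest unwounded one, so the ranges overlapped for most spots.

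**Figure D3:**
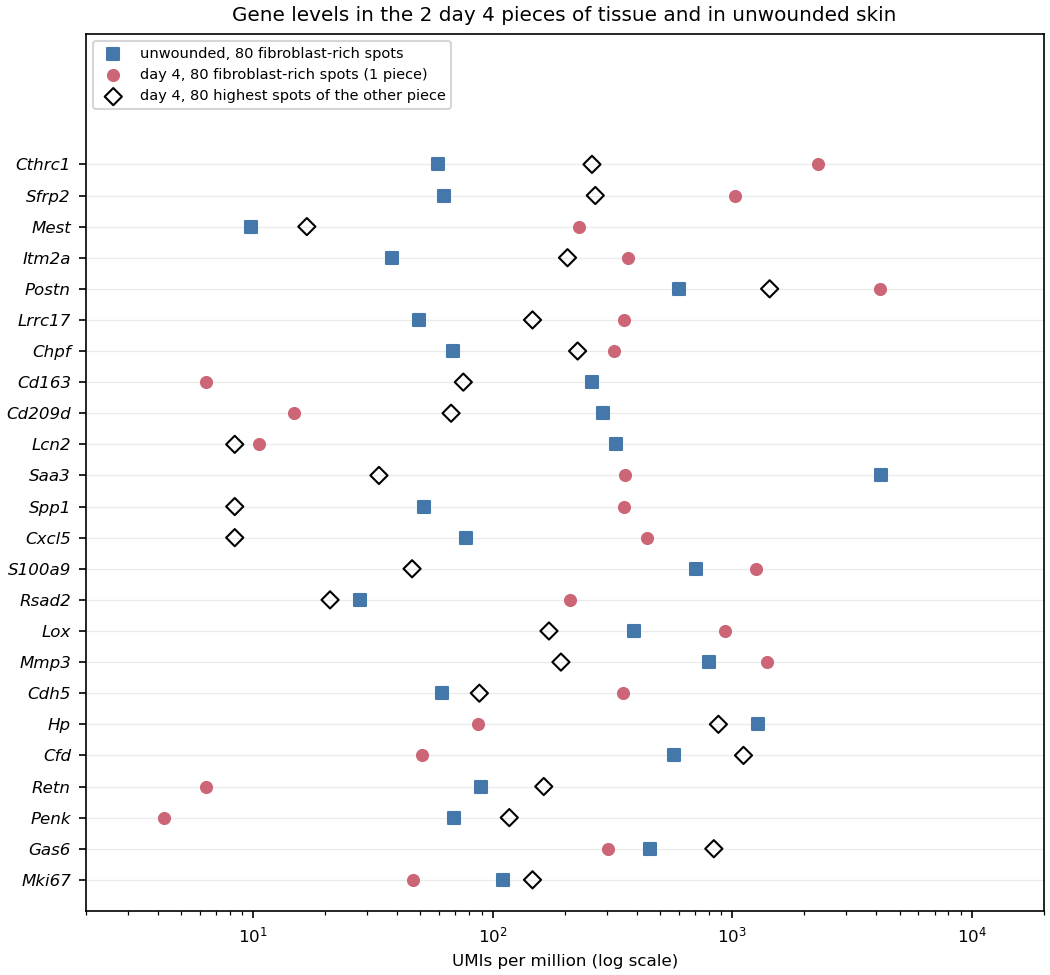
CPM on a log scale for 24 genes in the 80 chosen unwounded spots (squares), the 80 chosen day 4 spots (circles) and the 80 highest-scoring spots of the other day 4 piece (diamonds). For Cthrc1, Sfrp2 and Postn both day 4 sets lie above the unwounded one, whereas for Spp1, Cxcl5, Lox, Hp, Cfd and Gas6 the 2 day 4 sets lie far apart, on opposite sides of the unwounded one except for Hp.

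Matrix genes outside the score were read by list, with log2 ratios after adding 10 CPM to both sides for the list median. Over all genes 8.06% were higher and 10.8% lower, and 7.27% and 6% with the other day 4 piece. The counts of each list below stand beside these shares, and a count near them is no result about the list. Among fibrillar and fibril-associated collagens 7 of 8 were higher and 0 lower (median log2 ratio 1.05), with Col5a1 at 536 against 1659 CPM (1.63), Col12a1 at 298 against 811 (1.44), Col11a1 at 8.42 against 33.9 (2.01) and Col27a1 at 10.5 against 33.9 (1.69). Col5a1 and Col11a1 belong to the minor collagens that set fibril width, and Col12a1 decorates the fibril surface. The other day 4 piece had 3 of 8 higher and 0 lower (median 0.56), and Col12a1 was not higher there (201 CPM, -0.57). Among microfibril and basement membrane collagens 4 of 9 were higher and 0 lower (median log2 ratio 0.31). Col6a3, a chain of the beaded type VI microfibrils, was at 1011 against 3283 CPM (1.70) and at a like level of 3406 CPM in the other piece, while Col8a1 went from 42.1 to 142 CPM (1.75) but was at 16.8 CPM in the other piece.

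Small leucine-rich proteoglycans other than Dcn and Lum were mixed: 3 of 8 were higher and 2 lower (median log2 ratio 0.33). Aspn, asporin, went from 176 to 622 CPM (1.82) and Ogn, osteoglycin, from 124 to 316 CPM (1.36), whereas Bgn, biglycan, was at 1118 and 1349.5 CPM (0.27). Fmod, fibromodulin, was at 19.7 CPM in the unwounded spots and had no UMI in the day 4 spots, at least 3.09-fold lower against a floor of 3 UMIs. Elastic fibre genes gave 2 higher and 3 lower of 13 (median -0.20), with Fbln2, fibulin-2, from 578 to 2118 CPM (1.87), Ltbp4 from 126 to 36.1 CPM (-1.80) and Fbn1, fibrillin, at 939 and 758 CPM (-0.31). Aspn was at 159 and Fbln2 at 1015 CPM in the other day 4 piece.

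Of 20 collagen folding and crosslinking genes 5 were higher and 3 lower (median 0.17). The higher ones included P4ha3 and Plod2, which hydroxylate proline and lysine of collagen (3.42 and 2.70), Serpinh1, the collagen chaperone (865 to 2077 CPM, 1.26), and Lox (389.6 to 934 CPM, 1.26). Lox stood at 172 CPM in the other day 4 piece, below the unwounded level (-1.18), and Serpinh1 at 1346 CPM. Per spot Lox ran from 0 to 9.11 UMIs per 10000 over the unwounded spots (median 3.62) and from 0 to 28 over the day 4 spots (median 7.86), with 33 day 4 spots above the highest unwounded one. For each Col1a1 UMI there were 0.0572 (95% interval 0.0524 to 0.0623) of Lox in the unwounded and 0.0384 (95% interval 0.0348 to 0.0422) in the day 4 spots. Lox was thus higher in CPM and lower per Col1a1 transcript, and since Col1a1 is a gene of the score the ratio is a description only.

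The provisional matrix and matricellular list, which holds Cthrc1 and Postn, had 6 of 12 genes higher and 1 lower (median 0.68). Besides those named above, Fn1, fibronectin, went from 548 to 1961 CPM (1.84), with 50 of 80 day 4 spots above the highest unwounded spot, Thbs2, thrombospondin-2, from 204 to 770.2 (1.92), and Sparc, a collagen-binding matricellular protein, from 2159 to 5617 CPM (1.38). The other day 4 piece gave for the list 4 of 12 higher and 5 lower (median -0.88), so its median there was of the opposite sign, while Fn1 (1019 CPM, 0.90) and Thbs2 (348 CPM, 0.77) were above the unwounded level. The list median was also close to 0, at -0.01, when genes under 20 UMIs were let in. Metalloproteinases and their inhibitors gave 5 higher and 1 lower of 14 (median 0.42), led by the collagenase Mmp13 (13.3 to 136 CPM, 3.35) and, in the other direction, Mmp19 (208 to 50.9 CPM, -2.03). Mmp3 went from 801 to 1396 CPM (0.80) and was at 193 CPM in the other piece. Mmp13 was seen in 22 of 80 day 4 spots, all of them in the largest group of touching spots, and had 0 UMIs in the rest and in the other piece.

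Contractile genes of myofibroblasts showed no common direction, with 3 of 10 higher and 1 lower (median -0.11). Acta2, smooth muscle actin, was at 249 and 204 CPM (-0.29, 95% interval -0.63 to 0.04), Lrrc15 went from 77.2 to 187 CPM (1.27), Actn1 from 131 to 295 (1.18) and Myl9 from 85.6 to 31.8 (-1.43). Hyaluronan genes had 0 of 8 higher and 2 lower (median -0.29), namely the synthase Has1 (24.6 to 2.12 CPM, 1 UMI at day 4, -3.53, 95% interval -8.88 to -0.96) and the hyaladherin Tnfaip6 (254 to 84.9 CPM, -1.58). Beside shares of 8.06% higher and 10.8% lower over all genes, a list of 8 genes is small.

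Signalling genes of fibroblasts were examined by pathway. Among Wnt ligands and secreted antagonists 3 of 7 were higher and 2 lower (median log2 ratio 0.34): Sfrp2, Sfrp4 (29.5 to 221 CPM, 2.90) and Ccn4 (12.6 to 61.5, 2.28) were higher, and Wif1 (135 to 36.1, -1.90) was among the lower. The PDGF axis gave 3 of 5 higher and none lower (median 0.97), with the receptor gene Pdgfrb from 159 to 350.1 CPM (1.14), while no gene of the axis was counted in either direction in the other day 4 piece. In the IGF axis 3 of 9 were higher and 1 lower (median log2 ratio 0.17), with Igfbp5 from 217 to 656 CPM (1.60) and Igf1 from 184 to 327 CPM (0.83). The TGF-beta pathway had 1 of 12 higher and 3 lower (median 0.03), beside 8.06% higher and 10.8% lower over all genes. Its ligands differed in direction, Tgfb3 from 36.5 to 106 CPM (1.54) and Tgfb1 from 80.7 to 29.7 CPM (-1.44). In the other day 4 piece Tgfb3 (-0.31) and Wif1 (0.16) lay on the opposite side of the unwounded level.

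Fibroblast transcription factors had 5 of 15 higher and 1 lower (median 0.22). Prrx1, a factor of limb and craniofacial mesenchyme, went from 187 to 630.2 CPM (1.75), Tcf4 from 131 to 433 (1.73) and Twist1 from 175 to 382 (1.13). All 3 were above the unwounded level in the other day 4 piece too (763, 344 and 482 CPM). Layer markers of the dermis split: of the papillary list 2 of 10 were higher and 1 lower (median -0.39), of the reticular list 5 of 10 higher and 2 lower (median 0.60), and of the fascia list 3 of 8 higher and 1 lower (median 0.30). In the reticular list Ptgis, prostacyclin synthase, went from 4.91 to 87 CPM (4.15), Mgp from 137 to 301 (1.14) and Gpx3 from 1029.8 to 511 (-1.01). In the fascia list Dpp4 went from 38.6 to 129 CPM (1.75), Mfap5 from 92 to 238 (1.37) and Pi16, a marker of universal fibroblasts, from 709.7 to 303 (-1.23).

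Further lists were drawn up after the values had been seen, so their counts are descriptions only. Imprinted genes that control growth of the embryo had 8 of 10 higher and none lower (median 1.53), against a median of 0.70 in the other spots. Grb10 went from 50.5 to 197 CPM (1.97), Meg3 from 70.2 to 239.8 (1.77), Dlk1 from 2 to 18 UMIs (4.77, 95% interval 2.70 to 7.92) and H19 from 21.8 to 93.4 CPM (2.10). H19 and Dlk1 were concentrated in the second group of touching day 4 spots, at 598 and 184 CPM against 13.7 and 16.4 in the largest group. Without the part of the day 4 spots that holds most of them, H19 was at -1.0 in place of 2.10. Mest showed the opposite distribution, with 277 CPM in the largest and 46 in the second group. In the other day 4 piece 3 of 7 imprinted genes were higher and none lower (median 0.82). Meg3 (0.79) and H19 (1.08) were not counted as different there. Enzymes of chondroitin and heparan sulphate had 6 of 15 higher and 1 lower (median 0.64), among them Csgalnact1 (40.7 to 191 CPM, 2.23) and Sulf1 (43.5 to 178 CPM, 2.03), and in the other day 4 piece 1 of 15 higher (median -0.16).

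Acute-phase transcripts and several complement transcripts were lower in the chosen day 4 spots. Saa3, serum amyloid A3, a product of stromal cells and macrophages under inflammation, stood at 4171 CPM in the unwounded and at 359 CPM in the day 4 spots (-3.54, 95% interval -3.77 to -3.32). Per spot it ran from 0 to 118 UMIs per 10000 over the unwounded spots (median 34.5) and from 0 to 19 over the day 4 spots (median 1.86), and no day 4 spot exceeded the unwounded median. Lcn2, lipocalin-2, went from 328 to 10.6 CPM (-4.95) and Hp from 1285 to 87 CPM (-3.89). Saa1 stood at 145 CPM (206 UMIs) and had no UMI at day 4, at least 22.7-fold lower, and the neutrophil chemokine Cxcl2 at 82.8 CPM and no UMI, at least 13-fold lower. Of 9 acute-phase genes, a list drawn up after seeing them, 8 were lower (median -2.18), including Lbp (467 to 115 CPM, -2.03) and Serpina3n (646 to 138 CPM, -2.23). Of 8 complement genes 5 were lower and none higher (median -0.99), with C3 from 605 to 216 CPM (-1.48), C4b from 555 to 163 (-1.76), Cfb from 424 to 174 (-1.29) and Cfd from 570.0 to 50.9 (-3.48). The complement result was smaller elsewhere, with 2 of 8 genes higher and 2 lower in the other day 4 piece (median -0.31; C4b at -0.43 was not counted there) and a median of -0.11 with 160 spots per section.

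The unwounded level of these genes was itself uneven. Saa3 was at 6471 CPM in the largest group of touching unwounded spots and 661 in the second, which lies in the other piece of tissue, and in day 4 skin at 441 CPM in the largest and 61.3 in the second group. In the other eligible spots of the section labelled unwounded, neutrophil markers took 0.668% of UMIs and S100a9 stood at 3020.4 CPM, against 0.0196% and 76.3 CPM in day 4 skin. In the chosen spots neutrophil markers took 0.163% in the unwounded and 0.187% in the day 4 set, and their part in the acute-phase result was not tested. In the other day 4 piece Saa3 was lower still (33.6 CPM) and Lcn2 was at 8.39 CPM, whereas Hp (877 CPM, -0.55) was not counted as lower and Cfd (1116 CPM, 0.97) was higher than in unwounded skin.

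Cytokines and chemokines of fibroblasts were divided, 4 of 13 higher and 5 lower (median -0.03). Cxcl12, the chemokine with which fibroblasts hold CXCR4-bearing cells, went from 1549 to 881 CPM (-0.82) and Ccl19 from 47 to 10.6 CPM (-2.15), opposite to Cxcl5. From the other day 4 piece 0 of 13 were higher and 8 lower (median -1.20). Enpp2, autotaxin, of the dermal papilla list went from 194 to 19.1 CPM (-3.34). Immediate early genes, a list drawn up after seeing the values, had 8 of 12 lower and 1 higher (median -1.19), with Fos from 229.6 to 36.1 CPM (-2.67) and Egr1 from 172 to 36.1 CPM (-2.25), and a like median of -1.27 in the other spots. In the secretory pathway list 3 of 15 were higher and 4 lower (median -0.33), in glycolysis 0 and 2 of 11 (median -0.55) and in cell division 0 and 1 of 15 (median -0.14). Over all genes 8.06% were higher and 10.8% lower, so the small glycolysis and division counts are no result about those lists. The division gene counted as lower was Mki67 (111 to 46.7 CPM, -1.25), and in the other day 4 piece 8 of 15 division genes were higher (median 0.90).

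Interferon-stimulated genes were higher in the chosen day 4 spots and unevenly spread over them. Of 15 tested in a list drawn up after seeing them, 10 were higher and 1 lower (median 0.66, against 0.08 in the other spots). Their promoters are shown because several genes of the list share a short element there, TTTC followed by any 2 bases and TTTC again (read as GAAA, any 2 bases and GAAA on the other strand), which resembles the core of the interferon-stimulated response element. In RefSeq promoters of the mouse genome GRCm38.p6 the element was found on either strand within 250 bases upstream of the start in 7 of the 11 genes of the list that had a promoter entry, and in 936 of 27025 genes of the whole table (3.46%). A match is a description of the letters and not a shown binding site. Both sequences are the 150 bases before the start, run 5′ to 3′ on the gene's own strand, with the element in capitals, Ifit1 at chr19:34640739-34640888 (plus strand) and Rsad2 at chr12:26456453-26456602 (minus strand).
Ifit1: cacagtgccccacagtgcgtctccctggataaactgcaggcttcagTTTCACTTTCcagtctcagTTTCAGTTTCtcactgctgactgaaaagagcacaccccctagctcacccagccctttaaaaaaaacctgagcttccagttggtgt
Rsad2: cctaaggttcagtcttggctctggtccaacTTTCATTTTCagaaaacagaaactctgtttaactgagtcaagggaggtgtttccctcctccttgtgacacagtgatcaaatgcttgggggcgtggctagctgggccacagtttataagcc
The Ifit1 stretch holds 2 matches in the same orientation and the Rsad2 stretch 1.

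Ifit1, which binds foreign RNA, went from 28.8 to 185 CPM (2.68, 95% interval 2.13 to 3.25), Rsad2 from 28.1 to 210.1 CPM (2.90), Ifi44 from 14.7 to 50.9 (1.79) and the chemokine Cxcl10 from 12.6 to 151 CPM (3.58). Ifi27l2a, the gene of the list with the most UMIs, was lower (1033 to 605 CPM, -0.77). The list's share of a spot ran from 0.0315% to 0.419% over the unwounded (median 0.171%) and from 0.0536% to 1.54% over the day 4 spots (median 0.182%), so the medians were close and a few day 4 spots were far higher, 4 of them at 1% or more. Cxcl10 was seen in 16 unwounded and 16 day 4 spots and reached 46 UMIs per 10000. The 9 day 4 spots outside the largest and second groups held 0.696% of UMIs in the list, against 0.218% in the largest group. Outside these 9 spots Rsad2 was at 151 CPM in the largest and 138 in the second group, above 29.3 and 24.4 in the unwounded groups. Rsad2 had been picked by a rule that asked for the same direction in all pairs of spatial parts of the chosen spots. Its order across the groups is thus partly a result of that choice. The other day 4 piece had 0 of 13 higher and 5 lower (median -1.14).

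Gas6, the ligand of the TAM receptor tyrosine kinases (Tyro3, Axl and Mertk) and the subject of the series, was at 456 CPM (650 UMIs) in the unwounded and 303 CPM (143 UMIs) in the day 4 spots, a log2 ratio of -0.59 (95% interval -0.86 to -0.33). Per spot it ran from 0 to 13 UMIs per 10000 over the unwounded spots (median 4.20) and from 0 to 11.6 over the day 4 spots (median 2.68), so the ranges overlapped. Gas6 was seen in 76 and 55 of 80 spots, a count that also depends on the lower depth of the day 4 spots. It lay in opposite order in the other day 4 piece, at 839 CPM (0.88), and was not lower with 160 spots per section (0.12) or with a score made of Dcn, Lum and Pdgfra alone (0.63). The ratio of -0.59 lies at the 1.5-fold limit, and Gas6 was counted as lower in 14 of 23 alternatives. It was also not counted with the totals taken without the score genes or without mitochondrial and top genes, with spots of at least 3000 UMIs, or without 1 part of the unwounded or either of 2 parts of the day 4 spots. Some of the 14 could not change the Gas6 call, namely those with another gene minimum or another CPM addition. Others, with spots of at least 500 UMIs or under 0.5% neutrophil transcripts, kept all 80 chosen spots of each section. In the other eligible spots Gas6 was at 139.8 CPM in unwounded and 211 CPM in day 4 skin (0.59). For each UMI of Pdgfra the chosen spots held 1.99 (95% interval 1.74 to 2.28) of Gas6 in unwounded and 0.659 (95% interval 0.530 to 0.818) in day 4 skin. Pdgfra is a gene of the score and was itself higher at day 4, so this ratio is a description only. In the other eligible spots Gas6 per Pdgfra was 2.99 (95% interval 2.70 to 3.32) and 2.44 (95% interval 2.24 to 2.64). Per Axl UMI the chosen spots held 3.51 (95% interval 2.98 to 4.16) and 2.42 (95% interval 1.78 to 3.34) of Gas6, with intervals that overlapped. In the other eligible spots Gas6 per Axl lay in the opposite order, at 2.02 (95% interval 1.84 to 2.21) in unwounded and 3.63 (95% interval 3.30 to 4.0) in day 4 skin.

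None of the receptors was counted as different in the chosen spots. Axl was at 129.9 and 125 CPM (-0.05, 95% interval -0.50 to 0.38), Tyro3 at 16.8 and 8.49 (-0.99, -2.98 to 0.55) and Mertk, the receptor of efferocytosing macrophages, at 13.3 and 14.9 (0.16, -1.34 to 1.47). Pros1, the other TAM ligand, was at 186 and 163 CPM (-0.19). Tyro3 and Mertk rested on 4 and 7 UMIs in the day 4 spots, so a difference within their intervals was not detectable at this depth. In the other day 4 piece Axl was at 67.1 CPM and counted as lower (-0.95), opposite to Gas6 there. Within the unwounded section Gas6 was higher in the chosen than in the other spots (1.71) and the same ratio within the day 4 section was 0.52.

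Transcripts of other cell types differed between the chosen sets, and each is given with its whole list. The shares over all genes were 8.06% higher and 10.8% lower. Macrophage and monocyte markers took 0.643% of UMIs in the unwounded and 0.640% in the day 4 spots, with 4 of 14 higher and 6 lower (median -0.06). Lyz2, lysozyme, went from 1188 to 1897 CPM (0.68) and Ms4a7 from 169.9 to 308 (0.86), while C1qc, a complement subunit of tissue macrophages, went from 739 to 356 (-1.05) and Cd68 from 194 to 95.5 (-1.03). Members of the list thus went in opposite directions at a constant sum. Of 11 genes of resident dermal macrophages, drawn up after seeing the values, 10 were lower (median -2.40). The haemoglobin scavenger receptor Cd163 went from 260.4 to 6.37 CPM (371 to 3 UMIs, -5.35, 95% interval -7.64 to -3.80) and was seen in 67 unwounded and 3 day 4 spots. The lectins Cd209d (289 to 14.9 CPM), Cd209f (312 to 31.8) and Cd209b (81.4 to 4.24) belong to 1 gene family with similar sequences, and are uncertain where the authors' counting could split reads between them. In the other day 4 piece the same list had 0 of 11 higher and 7 lower (median -1.24), Cd163 was at 75.5 CPM and Ms4a7 at 151 CPM.

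Neutrophil markers were at 0.163% and 0.187% of UMIs. Their most abundant genes, whose proteins form the calprotectin pair, went in opposite directions, S100a8 from 657 to 354 CPM (-0.89) and S100a9 from 708 to 1256 CPM (0.83), and the receptor gene Csf3r was at 75.8 and 53 CPM (-0.52). S100a9 kept its call in 17 of 23 alternatives and S100a8 in 21, so the opposite directions depended on the choice of spots. S100a8 and S100a9 are also made by stressed keratinocytes. In the largest group of touching day 4 spots the list took 0.232% of UMIs and in the second 0.0215%, and Cxcl5 was at 559 and 46 CPM in the same groups. The other day 4 piece held 0.0101% and 8.39 CPM. The part of neutrophil transcripts in the Cxcl5 and Spp1 differences was not tested.

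Endothelial markers took 0.0677% and 0.0987% of UMIs, with 4 of 11 higher and 1 lower (median 0.13). Besides Cdh5, the VEGF receptor gene Kdr went from 14 to 63.7 CPM (2.18), and Vwf, of larger vessels, from 43.5 to 8.49 CPM (-2.36). Erythrocyte genes took 0.0419% and 0.188%, with Hbb-bs at 183 and 845 CPM (2.21) and at 784 CPM in the other day 4 piece. Antigen presentation genes of dendritic cells had 3 of 6 lower and none higher (median -0.59), with H2-Ab1 from 819 to 376 CPM (-1.12) and Cd209a from 92 to 14.9 CPM (-2.63). Pericyte and smooth muscle markers had 2 of 7 higher and 2 lower (median 0.12), and mast cell markers 0 and 1 of 4 (median 0.25).

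Skeletal muscle had the list median farthest from 0, and its UMIs lay in few spots. Muscle markers took 0.729% of UMIs in the unwounded and 0.0999% in the day 4 set, and all 13 were lower (median -2.77), among them Acta1 (2093 to 299 CPM, -2.81), Myh1 (1263 to 97.6 CPM, -3.69) and Mb, myoglobin (208 to 8.49 CPM, -4.61). Per spot the share ran from 0% to 8.07% over the unwounded (median 0.0278%) and from 0% to 1.43% over the day 4 spots (median 0.0198%), so most spots of both sets were nearly free of muscle and 6 unwounded spots and 1 day 4 spot held 1% or more. These transcripts lay in the second group of touching unwounded spots, with 2.18% of UMIs against 0.0658% in the largest group. Splitting the unwounded set at its median array row and column gave 4 parts. Without the part that holds this group the list median was 0.37, and with a score made of Dcn, Lum and Pdgfra alone it was 1.43, both of opposite sign.

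Epidermal, sebaceous and adipocyte markers were counted in the same way. Basal keratinocyte markers had 1 of 9 higher and 5 lower (median -0.98), with Krt14 from 2919.6 to 1477 CPM (-0.98). Sebaceous gland genes had 4 of 5 lower (median -1.62), with Scd1 from 3495 to 607 CPM (-2.53). Adipocyte markers took 0.128% and 0.136% of UMIs, with 3 of 8 lower and none higher (median -0.30). They were uneven by gene: Plin1 of lipid droplets went from 47 to 10.6 CPM (-2.15) and the adipokine Retn from 89.2 to 6.37 CPM (-3.81), while Fabp4 was at 715 and 940.0 CPM (0.40). Adipocyte markers of the other day 4 piece had 7 of 8 higher and 0 lower (median 0.99) and took 0.286% of UMIs, beside Retn at 164, Cfd at 1116 and Hp at 877 CPM. Hair follicle, wound keratinocyte and melanocyte lists had 4 of 7, 3 of 6 and 1 of 5 genes lower and none higher. In the other day 4 piece 2 of 7 hair follicle and 2 of 5 melanocyte genes were higher (medians 0.51 and 1.07), and with the score made of Dcn, Lum and Pdgfra alone the medians were 0.27 and 0.20. Suprabasal epidermis markers took 0.578% and 0.596% of UMIs in the 2 sets. The part of adipocyte transcripts in the Cfd, Hp and Retn differences was not tested.

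**Figure D4:**
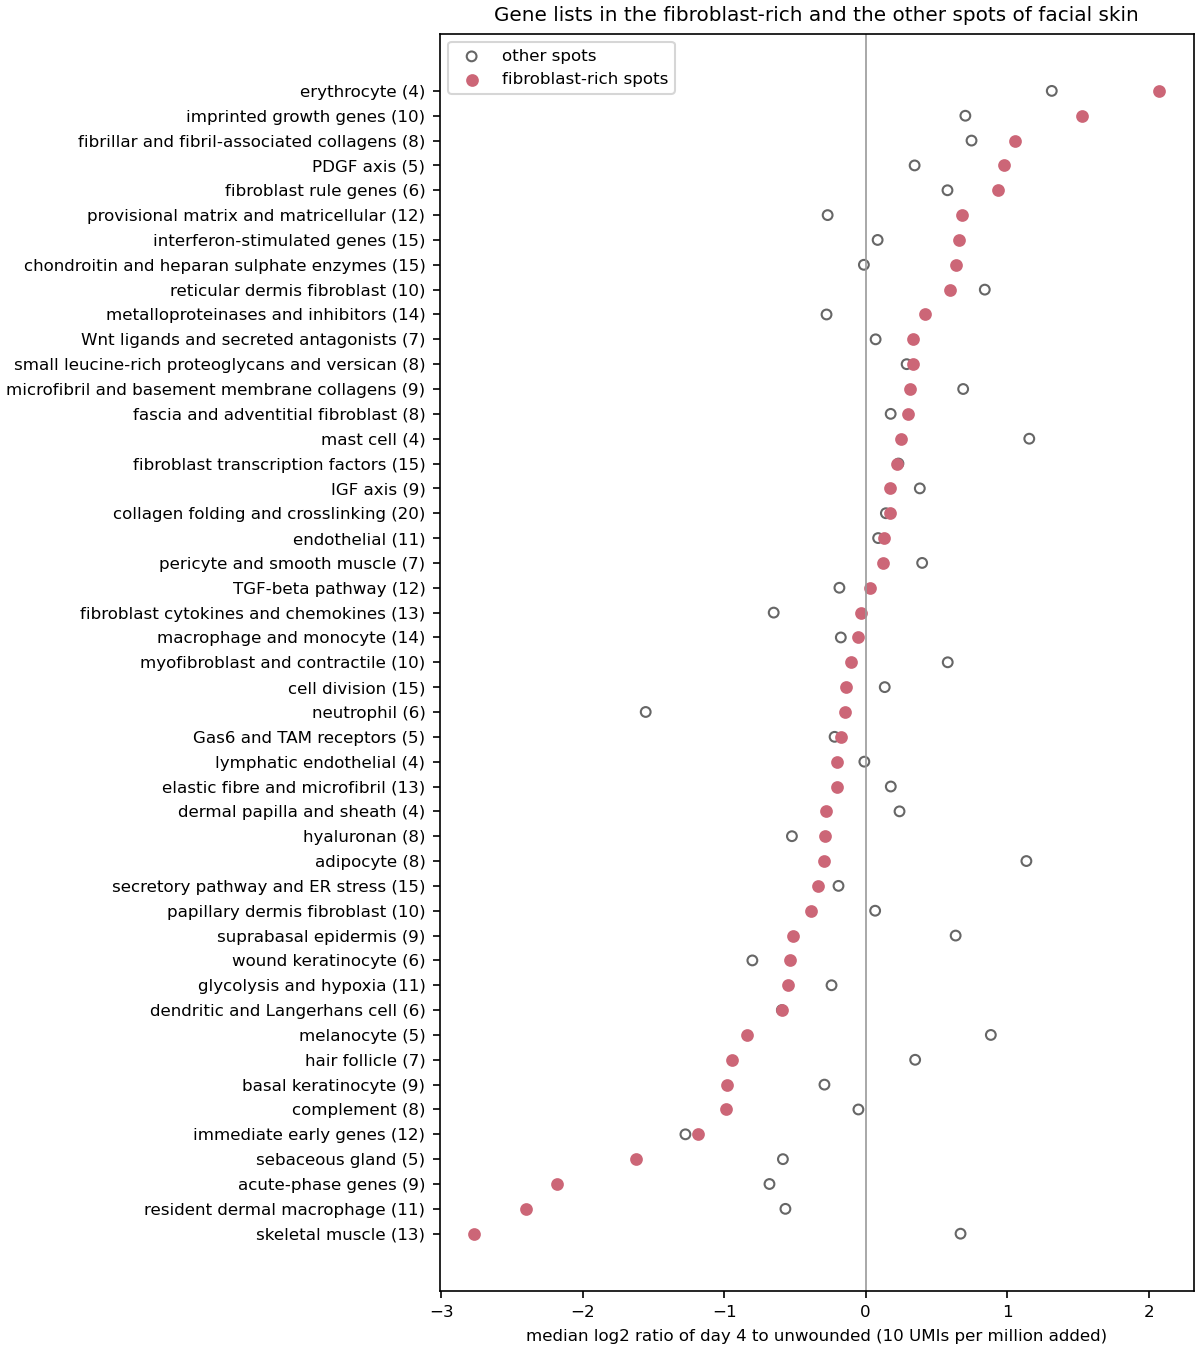
Median log2 ratio of day 4 to unwounded skin for each gene list with at least 3 genes tested (number tested in brackets), with 10 CPM added to both sides, for the 80 chosen spots of each section (filled) and all other eligible spots (open). The chosen spots run from -2.77 for skeletal muscle to 2.08 for erythrocyte genes, and several lists, among them skeletal muscle, adipocyte and provisional matrix, lie on opposite sides of 0 in the 2 kinds of spot.

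Within each section the chosen spots were not uniform. Cthrc1 was at 54.7 and 75.4 CPM in the 2 largest unwounded groups of touching spots and at 2335 and 2469 CPM in the 2 largest day 4 groups, so the day 4 groups were alike and far from both unwounded ones. Postn was at 493 and 709.6 against 4758 and 2147 CPM. Pdgfra, by contrast, was at 545 CPM in the largest day 4 group and 184 in the second, against 242 and 219.5 in the unwounded groups, so the day 4 groups lay on either side of them. Cdh5 (436 and 61.3 CPM) and Mmp3 (1653 and 276 CPM) followed the same split. Gas6 was at 296 and 276 CPM in the day 4 groups and at 384 and 652 in the unwounded ones. The second day 4 group was shallow, with a median of 2810 UMIs per spot against 6978.5 in the largest, which widens its counting error.

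**Figure D5:**
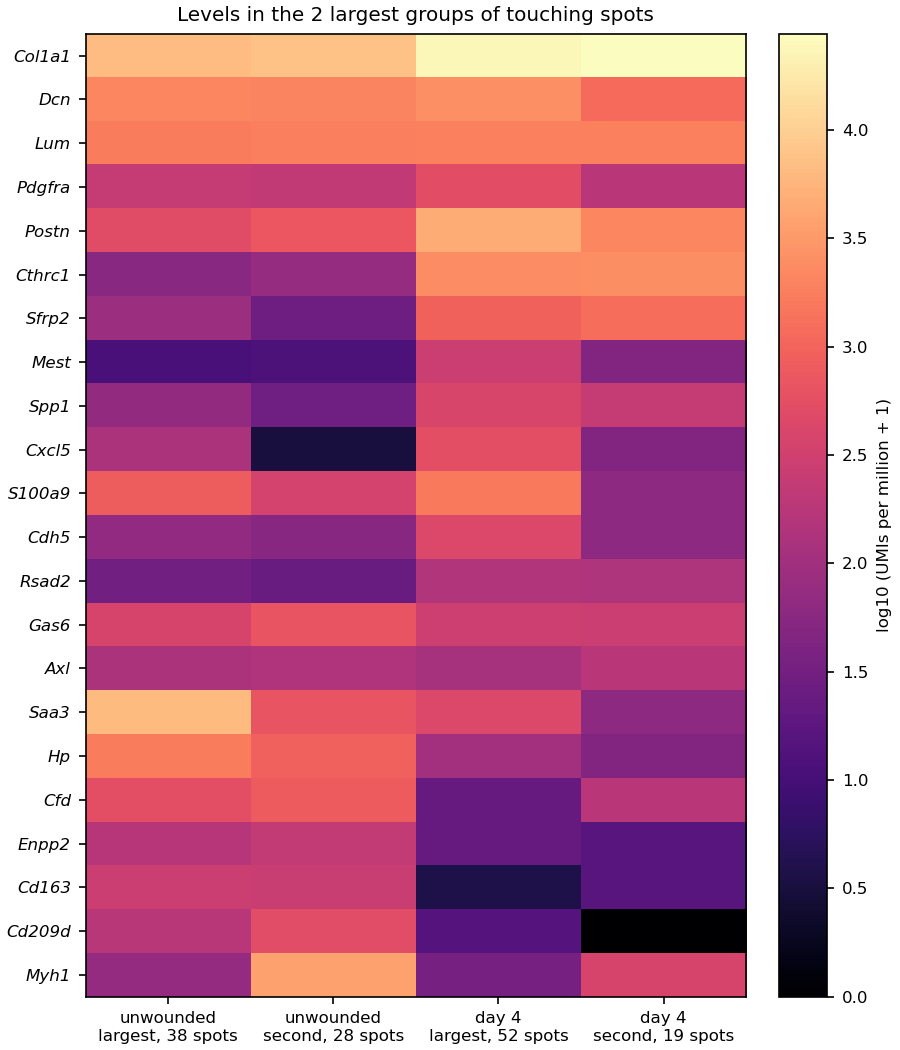
Level of 22 genes, as log10 of (CPM + 1), in the 2 largest groups of touching chosen spots of each section (38 and 28 unwounded spots, 52 and 19 day 4 spots). Cthrc1, Sfrp2 and Postn are bright in both day 4 groups, Cxcl5, S100a9 and Cdh5 in the largest day 4 group more than in the second, and Myh1 in the second unwounded group. Cthrc1, Sfrp2 and Postn had been picked by a rule that asked for the same direction in all pairs of spatial parts of the chosen spots.

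Across the 80 chosen spots of a section, Spearman's rho between the score and other lists described how the spots were ordered, with neighbouring spots and shared depth making the points dependent. In the unwounded spots the score went with collagen folding genes (rho 0.77), fibrillar collagens (0.74), macrophage markers (0.64) and complement (0.63) and against basal keratinocyte markers (-0.58). In the day 4 spots, whose scores spanned a narrower relative range, the same values were 0.21, 0.23, 0.08, 0.08 and -0.10. The provisional matrix list was similar in both, at 0.45 and 0.47. Spot depth was hardly related to the score in either set (0.12 and 0.07).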

How the data were processed

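UMI counts per gene and spot of 2 facial skin sections were used as deposited by the authors. Per the file headers the software was Space Ranger 1.3.1, and the submitters' processing notes name the mm10 genome. The sources used here give neither the annotation release nor the aligner settings. The matrices hold 32285 genes and the spots under tissue. The 2 facial matrices share 116 spot barcodes, 0 of them among the chosen spots.

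Counts were summed over a set of spots and scaled to CPM, with exact 95% Poisson intervals for levels and exact conditional intervals for log2 ratios (Python 3.11.15, numpy 2.4.6, scipy 1.17.1, pandas 2.3.3). With 1 section per group no test was run, and spots were not treated as replicates. The call rule asked for 20 UMIs, 1.5-fold and intervals apart, and was tested on simulated data. These data held counting error only and say nothing about the spread between spots, pieces of tissue or animals. Lists were summarised by counts and by the median log2 ratio after adding 10 CPM. Pieces of tissue were eligible spots linked at up to 2 steps, in pieces of at least 20 spots.

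Genes were named by a rule: the 6 genes of the score, the Gas6 receptors and ligands, up to 4 genes per list and comparison by size of ratio and the 1 with the most UMIs, and the 12 highest and lowest genes by ratio among those with at least 100 UMIs and 1 direction in all pairs of parts, the 10 highest and lowest against other spots, and the 6 that differed most between the 2 kinds of spot. The genes of lists drawn up later and the second day 4 piece were chosen after values were seen. The spots, the lists and the alternatives were chosen with earlier results of these data known. TMM factors came from edgeR 4.0.16, and figures from matplotlib 3.10.9. Single alternatives changed the scaling, the score, the number of spots, the gene minimum and the parts of the sets.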

Additional observations from a re-analysis of the deposited data

Results flagged for a closer look

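Among the genes named for the size of their ratio, or of its difference between the 2 kinds of spot, 7 were counted as higher at day 4 in one of the chosen and the other eligible spots and as lower in the other. With 1 section per group the difference between the 2 kinds of spot was not tested. Cfd had a log2 ratio of -3.48 in the chosen spots and 2.86 in the other spots, Hp -3.89 and 1.14, and Retn, an adipokine, -3.81 and 2.41. Penk, which encodes the precursor of enkephalins, stood at -4.02 and 0.79. Cxcl5 was at 2.51 in the chosen and -1.32 in the other spots, Spp1 at 2.77 and -2.55, and the matrix protease Mmp3 at 0.80 and -1.69. With a score made of Dcn, Lum and Pdgfra alone, Cfd, Retn, Penk and Mmp3 were no longer counted as different in the chosen spots. Mmp3 also lost its call with the mean over spots, with 160 spots per section and without 1 part of the day 4 spots. Gas6, which is not among the 7, was at -0.59 and 0.59. In the spots of the other day 4 piece, set against the same chosen unwounded spots, the 7 genes stood at 0.97 for Cfd, -0.55 for Hp, 0.88 for Retn, 0.77 for Penk, -3.20 for Cxcl5, -2.63 for Spp1 and -2.05 for Mmp3.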

How the results depend on the processing

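No paired analysis was possible because each group holds 1 section, and no section could be left out. Of 112 counts of genes over the alternatives 105 were within 1.5 times the main count. A like count does not mean the same genes. Of the 842 genes higher and 1125 lower at day 4, TMM scaling kept 97.3% and 100%. A score made of Dcn, Lum and Pdgfra alone kept 59.4% and 54.8%, and the other day 4 piece, with fewer UMIs, 32.2% of both. Of 3625 gene ratios 3482 kept their call of higher, lower or neither, whereas an uncalled ratio could change sign. Some alternatives could not change a ratio or call, such as those that kept the same 80 spots. Taking the mean over spots, whose calls use no interval, gave 1685 genes higher and 3016 lower at day 4, 4053 lower against the other day 4 spots, and -0.64 for Mertk. With 40 spots per section 494 genes were higher and 671 lower, and with at least 100 UMIs 539 were higher. With 160 spots Gas6 was at 0.12 and Myl9 at 0.0326. A score without the collagens, which kept 61 unwounded and 28 day 4 spots, gave list medians of 1.43 for skeletal muscle, 0.27 for hair follicle and 0.20 for melanocyte, and Gas6 0.63, S100a9 -0.21, Gpx3 0.28, Pi16 0.19, Des 1.12, Myh1 1.54, Mb 0.83, Acta1 1.72 and Plin1 0.45. With no gene minimum the provisional matrix median was -0.0086. Without 1 part of the unwounded spots the melanocyte median was 0.0307, and without another the muscle median was 0.37, with Des at 0.055, Myh1 at 0.60 and Acta1 at 0.97. Without 1 part of the day 4 spots H19 was at -1.0. From the other day 4 piece 608 genes were lower, list medians were -0.88 for provisional matrix, 0.51 for hair follicle, 1.07 for melanocyte, -1.14 for interferon-stimulated genes and -0.16 for chondroitin and heparan sulphate enzymes. Sign changes of single genes were read for a chosen set of genes and not for all genes counted. Within that set, the genes counted as higher or lower in the chosen spots that changed sign in the other day 4 piece were Col1a2 (-0.15), Gas6 (0.88), Spp1 (-2.63), Rsad2 (-0.42), Cxcl5 (-3.20), S100a9 (-3.94), Cd93 (-0.21), Cfd (0.97), Mmp3 (-2.05), Retn (0.88), Penk (0.77), Col12a1 (-0.57), Col8a1 (-1.33), Aspn (-0.14), Lox (-1.18), Tgfb3 (-0.31), Wif1 (0.16), Mki67 (0.40), Ms4a7 (-0.17), Plin1 (1.80), Ifit1 (-0.78), Ifi44 (-0.81) and Csgalnact1 (-0.47). Mertk (-1.67), Bgn (-0.53), Lum (-0.25) and Dcn (-0.048), which were not counted in the chosen spots, changed sign too. That alternative and the one leaving out spots rich in neutrophil transcripts were chosen after seeing the data. The neutrophil one kept all 80 chosen spots of both sections, so it could not change the comparison of day 4 with unwounded spots. The causes were not tested. The day 4 set held 471283 UMIs, so genes under 6.37 CPM there rest on fewer than 3 UMIs.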
